A study of Homo sapiens with 16 samples.

Results

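Spindle, kinetochore and condensin genes encode the machinery that condenses chromosomes, attaches them to microtubules and pulls them apart. Their mRNAs accumulate as cells approach mitosis, and many of their promoters carry a CHR element and CCAAT boxes, through which the MuvB complexes and the factor NF-Y act. The long noncoding RNA NORAD binds Pumilio proteins, which repress mRNAs that carry their motif in the 3′ UTR, and in human cells loss of NORAD is known for errors of chromosome segregation. The RNA-binding protein SAM68 (gene KHDRBS1) belongs to the STAR family, and the series asks whether NORAD needs it to control Pumilio.

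The genes described here are 50 named genes of mitosis, found by NCBI gene number among 27434 rows of RSEM gene estimates. All 50 had 1 row each, passed the filter on low counts in every fit, and had counts in each library, the lowest being between 207 and 600 expected counts per library. By role they are 6 genes of mitotic kinases and the chromosomal passenger complex, 6 of the spindle checkpoint, 15 of the centromere and kinetochore, 6 kinesins, 6 of spindle assembly, 5 of condensin, and 6 of the cyclin B, CDK1 and APC/C group.

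Poly(A) RNA was sequenced in 8 groups of 2 libraries from U2OS, a human osteosarcoma line, and HCT116, a human colorectal carcinoma line. The U2OS groups, all wild type at SAM68, received siRNA against SAM68, a non-targeting control siRNA, a pcDNA3-HA-SAM68 plasmid with the mouse gene, or the empty pcDNA3.1(+) plasmid. The HCT116 groups were SAM68 knockout (KO) cells with NORAD siRNA, wild-type (WT) cells with NORAD siRNA, KO cells with the control siRNA and WT cells with the control siRNA. Cells were harvested 48 h after transfection with siRNA at 50 nM or, for each 20000 cells, with 100 ng of plasmid. The labels do not say whether the KO cells are 1 clone, or whether paired libraries stem from different cultures. The p-values below therefore measure the spread between libraries, which may be technical. In bulk RNA a smaller share of cells near mitosis and less of an mRNA per cell cannot be told apart.

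Library depth was 11349545 to 27387412 expected counts. KHDRBS1 stood at 59.9 and 33.4 TPM under SAM68 siRNA against 176 and 177 TPM under control siRNA in U2OS, and at 18.6 to 28.3 TPM in KO against 124 to 155 TPM in WT HCT116. NORAD stood at 15.3 to 21.8 TPM under NORAD siRNA against 69.3 to 83.2 TPM under control siRNA in HCT116. EPCAM, an epithelial marker, was at 262 to 405 TPM in HCT116 and 4.37 to 7.87 TPM in U2OS, and VIM, a mesenchymal one, at 1.25 to 4.28 TPM in HCT116 and 2355 to 3143 TPM in U2OS. VIL1, a marker of intestinal epithelium, was at or near 0 in both lines. The second SAM68 siRNA library and its replicate differed along transcript GC content, with a Spearman rho of 0.66 across all genes between GC and the log2 difference of replicate 2 minus replicate 1. Between replicates of the other groups that rho lay between -0.63 and 0.59.

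The mitotic genes shared sequence features that the choice of members did not use. Their RefSeq promoters, 250 bases before to 50 after the annotated start on GRCh38.p14, were found for 42 of the 50. A CHR element, searched as TTTGAA or TTTAAA on both strands, stood in 33 of these 42 promoters (78.6%), against 15.5% of the 10449 promoters of genes with a mean of at least 1 TPM and 24.3% of all 27305. CCAAT on either strand stood in 31 of 42 (73.8%) against 36.5% of expressed genes. Both motifs together stood in 24 of 42 (57.1%) against 6.24%. The 47 CHR copies had a median start at position -31 from the annotated start, and the 66 CCAAT copies at -81.5. In 2 promoters some copies overlapped, so that the same letters count for both strands.

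Promoters of 2 members that were called in opposite directions in SAM68 KO cells under NORAD siRNA are shown to compare their motifs, with CHR elements and CCAAT boxes of either strand in capitals. HMMR, a microtubule-associated protein of the spindle, was higher, and CDC20, the activator of the APC/C ubiquitin ligase, was lower. With an offset for GC content and length HMMR had a log2 value of -0.01 and CDC20 stayed below 0, and neither was called. HMMR lies at chr5:163460382-163460681 and CDC20 at chr1:43358731-43359030, both on the plus strand of GRCh38.p14.
HMMR: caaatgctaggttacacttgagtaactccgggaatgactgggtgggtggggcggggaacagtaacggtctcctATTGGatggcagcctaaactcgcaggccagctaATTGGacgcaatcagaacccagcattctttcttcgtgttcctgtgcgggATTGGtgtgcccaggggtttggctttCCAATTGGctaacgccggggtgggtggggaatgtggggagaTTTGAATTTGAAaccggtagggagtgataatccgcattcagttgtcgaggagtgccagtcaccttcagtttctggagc
CDC20: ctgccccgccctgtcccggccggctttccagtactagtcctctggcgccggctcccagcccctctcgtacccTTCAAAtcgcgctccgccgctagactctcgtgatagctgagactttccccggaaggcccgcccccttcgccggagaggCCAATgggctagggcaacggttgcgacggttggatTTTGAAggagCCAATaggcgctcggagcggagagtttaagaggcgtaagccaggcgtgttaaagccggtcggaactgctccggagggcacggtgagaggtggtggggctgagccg
HMMR holds 2 CHR copies and 5 CCAAT copies, of which 2 overlap in CCAATTGG. CDC20 holds 2 of each.

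The Pumilio motif, searched as TGTANATA in each gene's longest 3′ UTR among GENCODE 29 transcripts, stood in 23 of the 50 genes (46.0%), against 24.9% of 17980 genes with a 3′ UTR and 28.5% of those with a mean of at least 1 TPM. A scrambled motif, TATGNATA, stood in 8 of the 50 (16%) against 15.0% of all genes. The 3′ UTRs of the mitotic genes had a median length of 717 bases against 991, and held 0.635 motif copies per kb against 0.235. The scrambled motif was also denser in them, at 0.179 copies per kb against 0.123, and their 3′ UTRs were poorer in GC, with a median of 36.9% against 42.7%. CENPF, a large kinetochore protein, held 3 copies, and 7 genes held 2. The transcripts as a whole were also poor in G and C, with a median GC content of 42.6% against 49.5%, and motif carriers had a lower median (40.1%) than the 27 other mitotic genes (46.5%). A match is a description of these letters and does not show binding.

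Sites of mitotic genes with the motif that were called in KO against WT cells under NORAD siRNA are shown with their flanks, since they differ in direction. The capitals mark the motif. MAD2L1, TTK, CENPK, NDC80, NUF2, SPC25, KNL1, KIF18A, MZT1 and CDK1 were higher and INCENP, the scaffold of the chromosomal passenger complex, was lower. With an offset for GC content and length none of these genes was called, and CDK1 had a log2 value of -0.02.
MAD2L1: gcggcttaactTGTAAATAatttcttattc
TTK copy 1: acttatggcacTGTATATAttgtagacttg
TTK copy 2: ctaaaaaacttTGTAAATAaagttttgtgg
CENPK: tgtgaattttcTGTAAATAaaattatttct
NDC80: aatgttgatcaTGTATATAtatccatagtg
NUF2: ctgccccttgtTGTAAATAgtttgagtaaa
SPC25: catacaaatagTGTATATAaaaacggttta
KNL1 copy 1: tagtacatataTGTAAATAtattaatgttg
KNL1 copy 2: tagtaaggagaTGTACATAgaaattcattg
KIF18A copy 1: taatgtacaagTGTAAATAtatgtgcccat
KIF18A copy 2: cataaaatcatTGTAAATAttatttagtca
MZT1: actccaaaattTGTATATActtccaggcca
CDK1: taacttaaaaaTGTAAATAttctatatgaa
INCENP copy 1: gcttggccaggTGTATATAaacgtcctctg
INCENP copy 2: agacagtgctcTGTAAATAgttgttttaat
The site of CENPK starts at base 680 of a 3′ UTR of 709 bases, that of MZT1 at base 1695 of 1965, and that of SPC25 at base 12 of 537.

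**Figure D1:**
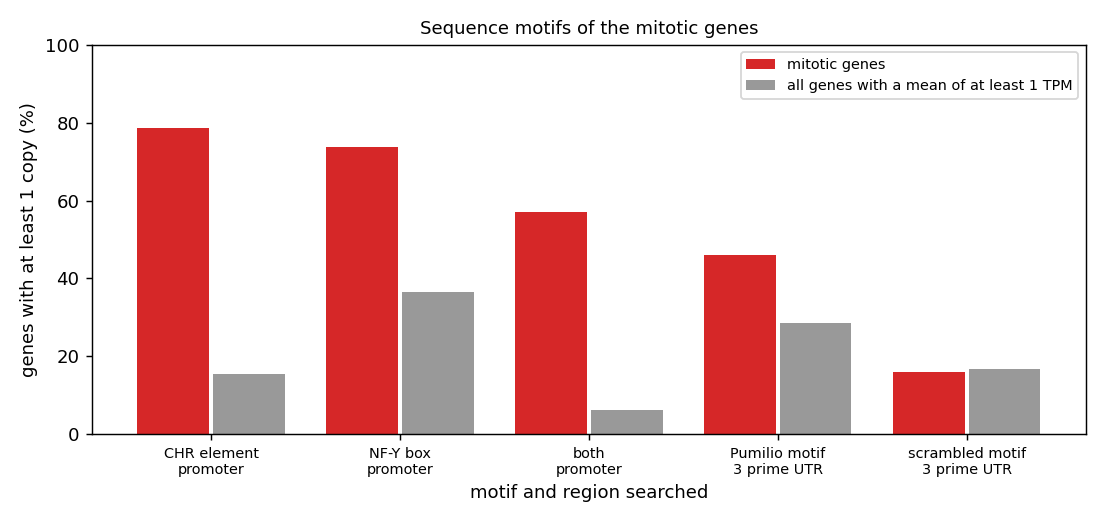
Share of genes (y axis, percent) with at least 1 copy of each motif (x axis; the NF-Y box is CCAAT) among the mitotic genes (red) and all genes with a mean of at least 1 TPM (grey). CHR elements stood in 78.6% of mitotic promoters and the Pumilio motif in 46.0% of mitotic 3′ UTRs, while the scrambled motif stood in 16% of them.

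As a level, given in TPM so that genes of different length can be set side by side, the mitotic genes spanned a wide range in both lines. In U2OS the highest were CDC20 at 513 ± 57.1 TPM, UBE2C, the E2 enzyme of the APC/C, at 473 ± 56.3 TPM, and CCNB1, the mitotic cyclin B1, at 412 ± 46.7 TPM (SD, n = 8 libraries of 4 groups). The lowest in U2OS were MZT1, a subunit of the gamma-tubulin ring complex, at 17.5 ± 4.2 TPM, KNL1, the kinetochore scaffold for checkpoint proteins, at 18.2 ± 10.7 TPM, and MIS12, which links kinetochore to centromere, at 20.6 ± 5.2 TPM. In HCT116 the highest were CDC20 at 400.4 ± 50.3 TPM, CCNB1 at 314 ± 26.3 TPM and UBE2C at 312 ± 32.6 TPM, followed by BUB3, a checkpoint protein, at 309 ± 26.8 TPM. The lowest there were CENPE, a kinetochore motor, at 11.9 ± 2.1 TPM, SGO1, the protector of centromeric cohesion, at 14.1 ± 1.9 TPM, and ASPM, a spindle pole protein, at 14.2 ± 2.5 TPM. CDC20 and UBE2C in U2OS, CCNB1, UBE2C and BUB3 in HCT116, the 3 lowest genes in U2OS and the next one, ASPM at 21.0 ± 13.5 TPM, and SGO1 and ASPM in HCT116 differed by less than their SDs.

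Subunits of 1 complex differed in level. In the NDC80 complex, which holds microtubules at the kinetochore, HCT116 had 58.6 ± 8.7 TPM of NDC80, 53.8 ± 12.8 TPM of SPC25, 48.9 ± 11.5 TPM of NUF2 and 26 ± 4.4 TPM of SPC24 (SD, n = 8). In U2OS the same genes stood at 148 ± 40.5, 117 ± 26.6, 75 ± 21.3 and 48.1 ± 5.4 TPM. SPC24 was the lowest of the 4 in both lines. In condensin, which compacts chromosomes, NCAPD2 was the highest of the 5 subunits in both lines, at 189 ± 52.9 TPM in U2OS and 124 ± 19.9 TPM in HCT116.

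The spread of a member over the 8 libraries of a line was larger in U2OS, with a median coefficient of variation of 23.6% against 14.1% in HCT116. In U2OS it followed transcript GC content (Spearman rho -0.73 over the 50 genes) and length (0.46), and in HCT116 the same values were -0.55 for GC content and -0.05 for length. ASPM, whose transcript has 10887 bases, stood at 40.6 and 13.4 TPM under SAM68 siRNA and 39.5 and 28.7 TPM under control siRNA, and at 5.87 and 15.6 TPM with the SAM68 plasmid and 15.5 and 9.14 TPM with the control plasmid. CENPE, with 8612 bases, stood at 52.5 and 11.5 TPM under SAM68 siRNA and 44.1 and 31.1 TPM under control siRNA, and at 8.84 and 16.8 TPM with the SAM68 plasmid and 22.5 and 8.20 TPM with the control plasmid. For both genes the replicates within a treated group differed by more than 1.5-fold, and the second SAM68 siRNA library was the lowest of the 4 siRNA libraries. The 50 points of each rho share the same libraries, so the values describe these libraries.

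Between the 2 cell lines 29 of the mitotic genes were called. In U2OS against WT HCT116, both under control siRNA, 22 of the 50 were higher and 7 lower by edgeR's quasi-likelihood test at an adjusted p below 0.05. Of all 16444 genes tested, 35.6% were called higher and 29.8% lower, so the count of higher mitotic genes lies somewhat above, and that of lower ones below, a background in which most genes differed. The median log2 fold change was 0.38 over the mitotic genes and 0.10 over all genes. The values and calls below are not corrected for that shift of all genes. Cell line and experiment cannot be told apart in this comparison, since each line was handled in its own set of libraries.

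Kinetochore genes were the most numerous among the increases, with 10 of 15 called higher, none called lower, and a median log2 of 0.81. CENPH, a subunit of the inner kinetochore, had 50.6 and 41.4 CPM in U2OS against 15.6 and 16.5 CPM in WT HCT116, a log2 fold change of 1.52 ± 0.22 (SE; edgeR adjusted p = 3.42e-05). NDC80 had 192 and 170 CPM in U2OS against 65.4 and 71.9 CPM in WT HCT116, a log2 fold change of 1.40 ± 0.22 (edgeR adjusted p = 5.9e-05). Both genes were clearly apart between the lines, with every U2OS library above every HCT116 one. CENPA, the histone H3 variant of centromeres, had 61.2 and 68.2 CPM in U2OS against 27.8 and 25.9 CPM in WT HCT116, a log2 fold change of 1.27 ± 0.16 (edgeR adjusted p = 1.06e-05). CENPE, SPC25, SGO1, CENPK and CENPF rose by 1.46, 1.08, 0.92, 0.91 and 0.81 on the log2 scale. CENPF has a long transcript of low GC content, and with an offset for GC content and length its log2 value was 0.30 (edgeR adjusted p = 0.253).

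Of the kinesins 5 of 6 were called higher and all 6 had values above 0, with a median log2 of 0.72. KIF11, the motor that pushes spindle poles apart, had 229 and 189 CPM in U2OS against 86.5 and 106 CPM in WT HCT116, a log2 fold change of 1.12 ± 0.27 (edgeR adjusted p = 0.00249). Condensin was divided. SMC2, a core ATPase of condensin, had 218 and 190 CPM in U2OS against 71.0 and 74.9 CPM in WT HCT116, a log2 fold change of 1.48 ± 0.28 (edgeR adjusted p = 0.000349). NCAPG, a HEAT-repeat subunit of condensin I, had 133 and 97.4 CPM in U2OS against 186 and 216 CPM in WT HCT116, a log2 fold change of -0.80 ± 0.27 (edgeR adjusted p = 0.0188). Neither gene's groups overlapped, and the 2 subunits lay in opposite directions.

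Spindle checkpoint genes made up 3 of the 7 decreases, with 1 of 6 called higher. MAD2L1, the checkpoint inhibitor of CDC20, had 79.1 and 67.9 CPM in U2OS against 162 and 159 CPM in WT HCT116, a log2 fold change of -1.12 ± 0.18 (edgeR adjusted p = 6.88e-05). BUB1B, which encodes the checkpoint protein BUBR1, and its partner BUB3 fell by 0.54 and 0.52 in log2 (edgeR adjusted p = 0.0194 for BUB1B and 0.00207 for BUB3). The kinases AURKB, of the chromosomal passenger complex, and PLK1, the polo-like kinase, fell by 0.69 and 0.64 (edgeR adjusted p = 0.00239 and 0.00215), and PRC1, which bundles microtubules of the central spindle, by 0.37 (edgeR adjusted p = 0.0153). For all 7 the U2OS libraries lay below the HCT116 ones. Among 86 other mitotic genes 26 were called higher and 17 lower, among them the transcription factor FOXM1 (log2 1.48) and the kinetochore subunit CENPO (1.06), and the condensin II subunit NCAPD3 (-1.24), the kinesin KIF22 (-1.27) and the APC/C genes UBE2S (-1.49) and ANAPC10 (-1.22). Among 30 genes of S phase 5 were called higher and 15 lower, with a median log2 of -0.43.

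**Figure D2:**
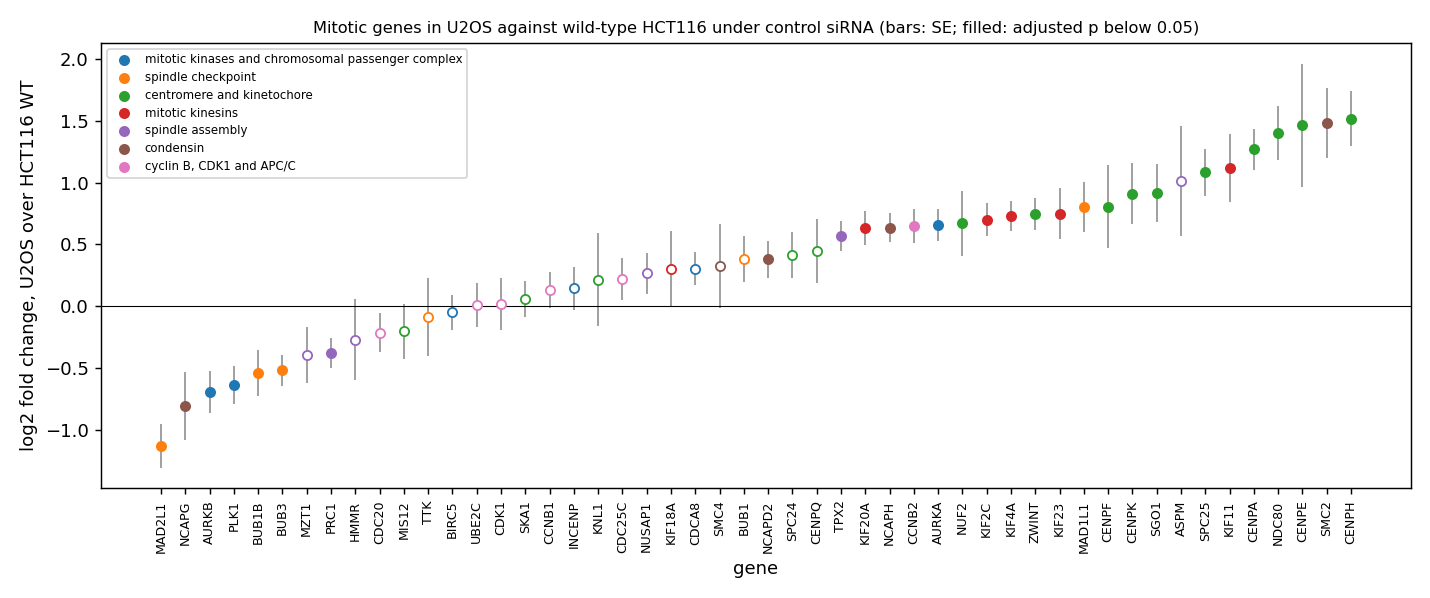
Log2 fold change of each mitotic gene (x axis, ordered by value) in U2OS over wild-type HCT116 under control siRNA (y axis, log2), coloured by role, with bars for the standard error and filled points for an adjusted p below 0.05. MAD2L1 lies lowest at -1.12 and CENPH highest at 1.52, and all 6 kinesins lie above 0.

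SAM68 siRNA in U2OS called none of the mitotic genes. KHDRBS1 itself, at a log2 value of -1.94 ± 0.25 (SE), did not pass the test either (edgeR adjusted p = 0.185), so a count of 0 does not exclude changes of that size. By edgeR's quasi-likelihood test 0 of 50 passed an adjusted p below 0.05, against 0.00639% of 15658 genes, and DESeq2 called 0. At an unadjusted p below 0.05 the count was also 0, against 1.06% of all genes. The median log2 was -0.13 over the mitotic genes and -0.01 over all genes, with 40 of the 50 below 0 against 51.4% of all genes. Replicates within a group differed by as much. Replicate 2 minus replicate 1 had a median of -0.16 over the mitotic genes under control siRNA, with 12 of 50 above 0. Under SAM68 siRNA it was -0.22, with 22 above 0. The groups did not overlap for 2 genes that were higher and 6 that were lower, against 9.46% and 9.42% of all genes. The 6 smallest p-values were those of BUB1B, NUSAP1, BUB1, KIF4A, NDC80 and KIF23. BUB1B had 128 and 78.1 CPM under SAM68 siRNA against 145 and 139 CPM under control siRNA, a log2 value of -0.47 ± 0.25 (edgeR adjusted p = 1). BUB1, the checkpoint kinase, had 253 and 161 CPM under SAM68 siRNA against 295 and 262 CPM under control siRNA, and NUSAP1, a microtubule-bundling protein, 191 and 123 against 204 and 218 CPM (log2 -0.43 for each). In these genes the second SAM68 siRNA library was the lowest and the first lay closer to the controls.

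KIF4A, a kinesin of the chromosome arms and midzone, had 160 and 167 CPM under SAM68 siRNA against 185 and 199 CPM under control siRNA (log2 -0.23). NDC80 and KIF23, a kinesin of cytokinesis, had log2 values of -0.38 and -0.33, and of 0.00 and 0.04 without the second SAM68 siRNA library. The median over the 50 genes was -0.03 without that library. Mitotic genes of low GC content lay lower than the others, with a median log2 of -0.27 in the 25 below the members' median GC and -0.04 in the remaining 25. Across all genes log2 values rose with GC content (Spearman rho 0.42), and with an offset for GC content and length the median of the mitotic genes was -0.08.

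The SAM68 plasmid called none of the mitotic genes either. KHDRBS1 had 267 and 381 TPM with the SAM68 plasmid against 139 and 169 TPM with the control plasmid, a log2 value of 1.18 ± 0.24 (SE) that did not pass the test (edgeR adjusted p = 1). The plasmid carries the mouse gene, and how far its reads were counted for human KHDRBS1 was not tested. By edgeR's test 0 of 50 passed an adjusted p below 0.05, against 0.00639% of all genes, and DESeq2 called 0. At an unadjusted p below 0.05 the count was 0, against 0.549% of all genes. The median log2 was 0.01 over both the mitotic genes and all genes, with quartiles of -0.05 and 0.07. UBE2C had 287 and 203 CPM with the SAM68 plasmid against 192 and 205 CPM with the control plasmid (log2 0.30 ± 0.20, edgeR adjusted p = 1), and CDC20 640 and 469 against 489 and 516 CPM (log2 0.14). For both genes the groups overlapped. INCENP, MAD1L1, a checkpoint partner of MAD2L1, AURKB and CCNB2, cyclin B2, had log2 values of -0.16, 0.14, 0.13 and 0.10.

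In WT HCT116, NORAD siRNA called none of the mitotic genes. By edgeR's test 0 of 50 passed an adjusted p below 0.05, against 0.00727% of 13764 genes, and DESeq2 called 0. At an unadjusted p below 0.05 the count was 0, against 1.32% of all genes. The median log2 was 0.00, with 25 genes above and 25 below 0, against 50.7% and 49.3% of all genes. CDC25C, the phosphatase that activates CDK1, had 29.1 and 28.0 CPM under NORAD siRNA against 24.4 and 23.1 CPM under control siRNA (log2 0.26 ± 0.14, edgeR adjusted p = 1). CENPH had 12.1 and 13.5 CPM under NORAD siRNA against 15.1 and 15.9 CPM under control siRNA (log2 -0.28 ± 0.16, edgeR adjusted p = 1). The groups did not overlap for either gene, and neither passed the test. KIF2C, a microtubule-depolymerising kinesin, AURKB, NUSAP1 and MZT1 had log2 values of 0.15, 0.16, 0.11 and -0.15. The 23 genes with a Pumilio motif had a median log2 of -0.03 and the 27 without one 0.02. Log2 values of all genes rose with GC content (Spearman rho 0.43), and motif carriers are lower in GC. With an offset for GC content and length the median was 0.04 with the motif and 0.02 without it. The offset put 34 of the 50 genes above 0, against 5994 of 12259 of all genes. Without the offset, replicate 2 minus replicate 1 of the WT control siRNA group also had 34 of the 50 above 0, with a median log2 of 0.08. For the WT NORAD siRNA group it was 0.03, with 30 above 0.

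In SAM68 KO HCT116, NORAD siRNA also called none at the adjusted threshold, and most values lay above 0. By edgeR's test 0 of 50 passed an adjusted p below 0.05, against 0.00727% of all genes, and DESeq2 called 0. At an unadjusted p below 0.05, 17 were higher and 0 lower, against 6.98% and 4.34% of all genes. The median log2 was 0.20 over the mitotic genes and 0.00 over all genes, and 42 of 50 lay above 0, against 50.5% of all genes. The groups did not overlap for 33 genes that were higher and 2 that were lower, against 22% and 21.4% of all genes. All 15 kinetochore genes lay above 0, whereas 4 of 6 kinases and chromosomal passenger genes lay below it. With an offset for GC content and length, 12 of the 15 kinetochore genes lay above 0, and 4 of the 6 kinases and passenger genes lay above it too, with a median of 0.02 against -0.05 without the offset.

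MZT1 had 48.2 and 42.7 CPM under NORAD siRNA against 28.8 and 30.1 CPM under control siRNA in KO cells, a log2 value of 0.62 ± 0.12 (edgeR adjusted p = 0.428). CENPQ, an inner kinetochore subunit, had 32.0 and 28.6 CPM under NORAD siRNA against 15.1 and 20.2 CPM under control siRNA, a log2 value of 0.77 ± 0.15 (edgeR adjusted p = 0.428). For both genes the 2 NORAD siRNA libraries lay above the 2 control ones. HMMR, MAD2L1, SPC25 and CDK1, the kinase that drives entry into mitosis, had log2 values of 0.50, 0.46, 0.55 and 0.43 (edgeR adjusted p = 0.428 for each). MZT1 and CENPQ passed the threshold in 1 alternative, with no filter on low counts (adjusted p = 0.0175 and 0.00193).

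GC content moved with these values. Across all genes the log2 value fell with transcript GC content (Spearman rho -0.73), genes below 45% GC having a median of 0.20 and the rest -0.11. The 29 mitotic genes below 45% had a median log2 of 0.32 and the 21 at or above it 0.08. Within these ranges the mitotic genes were not matched to all genes for GC content. With an offset for GC content and length the median over the 50 genes was 0.06, and MZT1, CENPQ, HMMR and CDK1 had log2 values of 0.14, 0.33, 0.17 and 0.04. The values were thus smaller, and 43 of the 50 genes lay above 0 with the offset, against 6208 of 12259 of all genes. The 50 genes share the same libraries and also moved together between replicates. Without the offset, replicate 2 minus replicate 1 of the KO control siRNA group had a median log2 of 0.09, with 35 of 50 above 0. For the KO NORAD siRNA group it was 0.02, with 27 above 0. The 23 genes with a Pumilio motif, which are also lower in GC, had a median of 0.27 and the 27 without one 0.13. With the offset these medians were 0.07 and 0.06.

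The NORAD siRNA effect in KO cells minus that in WT cells, which shares its libraries with both comparisons above, called 0 of 50 by edgeR's interaction test against 0% of all genes, and DESeq2 called 0. At an unadjusted p below 0.05, 12 genes had a more positive effect in KO cells and 0 a more negative one, against 5.03% and 2.59% of all genes. The median difference was 0.20 on the log2 scale over the mitotic genes and -0.01 over all genes. MZT1 had log2 effects of 0.62 in KO and -0.15 in WT cells, a difference of 0.77 ± 0.17 (edgeR adjusted p = 0.642). HMMR, CENPQ, KIF18A, SPC25 and CDK1 had differences of 0.58, 0.73, 0.52, 0.66 and 0.50 (edgeR adjusted p = 0.642 for each). All 6 are genes of low GC content, and with the offset for GC content and length the 50 genes had a median difference of 0.03, MZT1 one of 0.14 and CDK1 one of 0.02. With 2 libraries a group, a difference of this size between the genotypes did not pass the test for any of the 50.

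**Figure D3:**
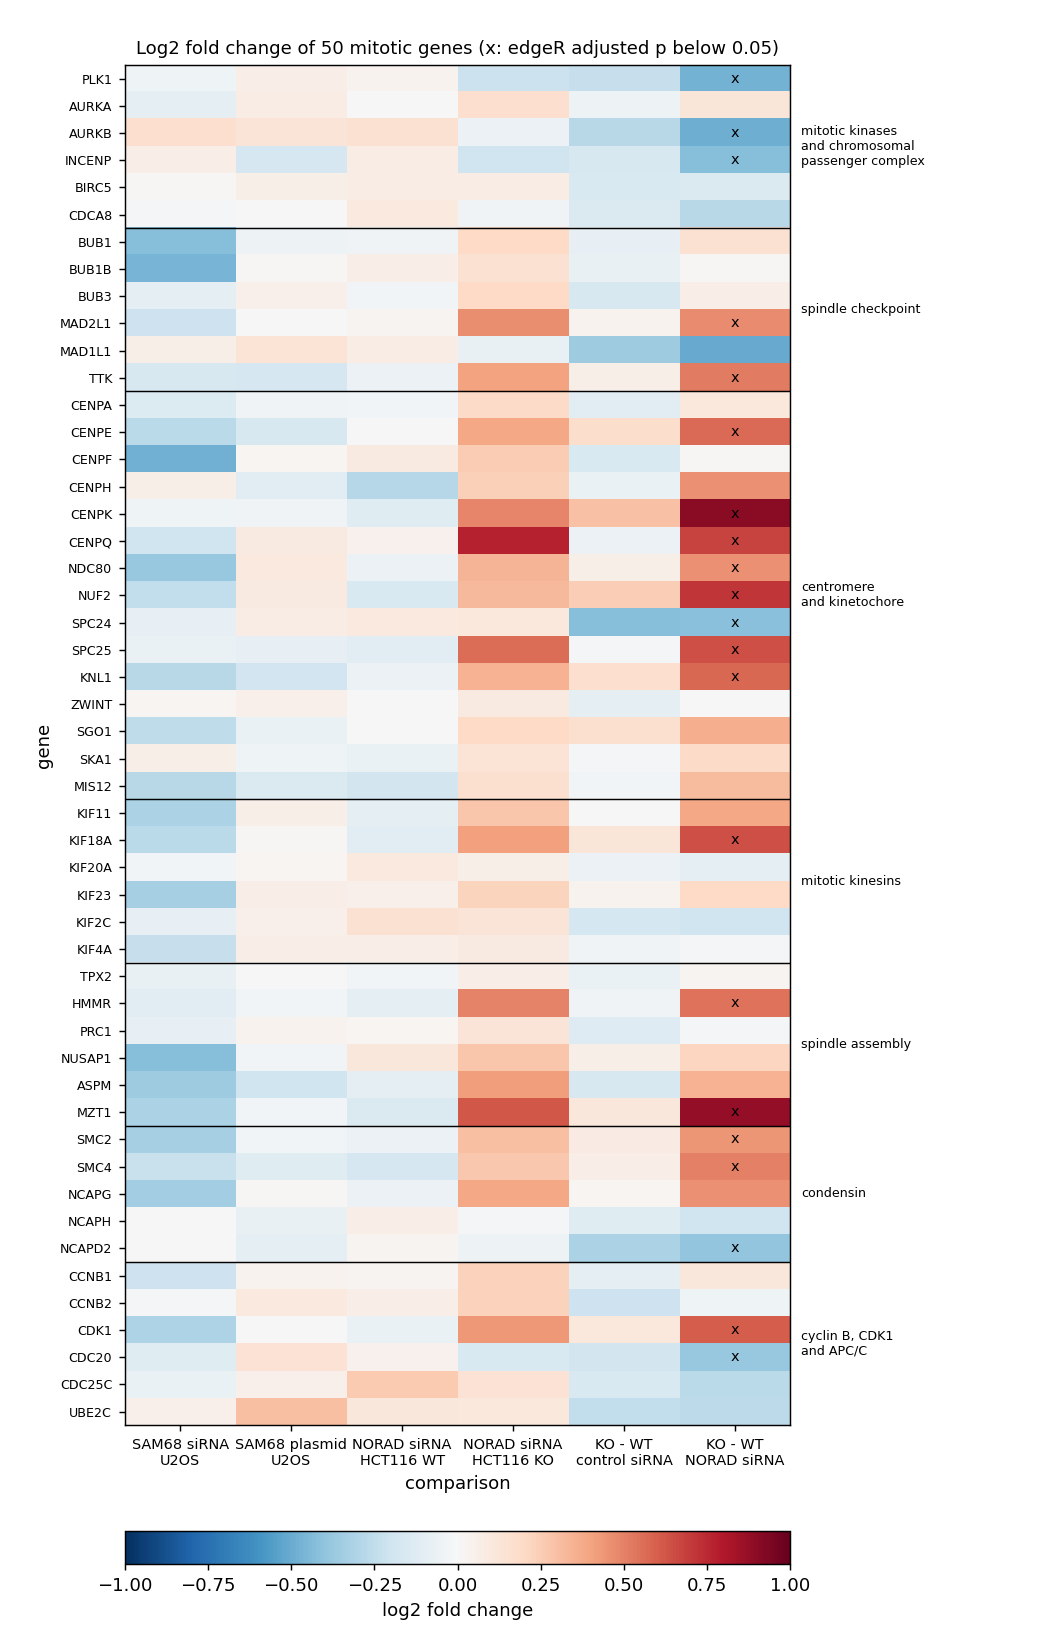
Log2 fold change (colour; red higher and blue lower in the treated or KO cells) of the 50 mitotic genes (rows, grouped by role) in 6 comparisons (columns), with x where the edgeR adjusted p was below 0.05. Calls appear in KO against WT under NORAD siRNA, 15 higher and 6 lower, and in none of the other 5 comparisons.

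Under the control siRNA no mitotic gene was called between KO and WT cells. By edgeR's test 0 of 50 passed an adjusted p below 0.05, against 0.312% of all genes, and DESeq2 called 0. At an unadjusted p below 0.05, 0 were higher and 3 lower, against 5.15% and 4.07% of all genes. The median log2 was -0.06 over the mitotic genes and 0.00 over all genes, and 33 of 50 lay below 0, against 49.4% of all genes. The median ranged from -0.11 to 0.01 when single libraries were left out, being 0.01 without the first KO control library and -0.01 without the second WT control library.

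The 3 genes are SPC24, NCAPD2 and AURKB. SPC24 had 27.9 and 23.4 CPM in KO against 37.1 and 31.8 CPM in WT cells, a log2 value of -0.43 ± 0.13 (edgeR adjusted p = 0.312). NCAPD2 had 322 and 306 CPM in KO against 372 and 410 CPM in WT cells, a log2 value of -0.32 ± 0.10 (edgeR adjusted p = 0.33). AURKB had 65.5 and 54.2 CPM in KO against 75.7 and 69.4 CPM in WT cells, a log2 value of -0.28 ± 0.12 (edgeR adjusted p = 0.535). In each of them both KO libraries lay below both WT libraries. PLK1, MAD1L1 and KIF2C had log2 values of -0.23, -0.35 and -0.18 with no overlap between the groups. All 6 kinases and chromosomal passenger genes lay below 0. With an offset for GC content and length 45 of the 50 genes lay below 0, with a median of -0.13. SPC24 and NCAPD2 passed the threshold with it (edgeR adjusted p = 0.0486 for SPC24 and 0.0383 for NCAPD2). The 50 genes share the same libraries and also moved together between replicates. Without the offset, replicate 2 minus replicate 1 had 35 of 50 above 0 in the KO control group (median log2 0.09). In the WT control group 34 lay above 0 (median 0.08).

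Under NORAD siRNA 21 mitotic genes were called between KO and WT cells. By edgeR's test 15 of the 50 mitotic genes were higher and 6 lower in KO cells at an adjusted p below 0.05, against 11.6% and 6.58% of all genes, and the median log2 was 0.13 over the mitotic genes and -0.02 over all genes. DESeq2 called 23. The number of calls rested on the full set of libraries. It was 0 without the first WT NORAD siRNA library, 1 without the second, 0 without the first KO NORAD siRNA library and 8 without the second. The calls over all genes also became fewer in each of these fits. The 21 calls share their libraries with the NORAD siRNA comparisons above. The replicate number as a block in the fit gave 33 calls, and a fit over all 16 libraries gave 0.

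The kinetochore held the most increases, with 7 of its 15 genes, and 1 decrease. CENPK, an inner kinetochore subunit, had 24.7 and 22.9 CPM in KO against 10.7 and 14.9 CPM in WT cells, a log2 fold change of 0.91 ± 0.16 (edgeR adjusted p = 0.0145). NUF2, the partner of NDC80, had 71.2 and 65.6 CPM in KO against 35.9 and 47.4 CPM in WT cells, a log2 fold change of 0.72 ± 0.17 (edgeR adjusted p = 0.0255). Both genes had all KO libraries above all WT ones. CENPQ, SPC25, KNL1 and CENPE rose by 0.67, 0.64, 0.57 and 0.57 on the log2 scale, and NDC80 was the seventh. SPC24, the subunit of the NDC80 complex bound to SPC25, had 27.4 and 27.8 CPM in KO against 37.5 and 36.2 CPM in WT cells, a log2 fold change of -0.42 ± 0.13 (edgeR adjusted p = 0.0490). Within that complex of 4 genes, 3 rose and SPC24 fell. NDC80, NUF2 and SPC25 had transcript GC contents of 40.1%, 38.8% and 40.0%, and SPC24 had 53.4%. With an offset for GC content and length none of the 4 was called.

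Outside the kinetochore, MZT1 had 48.2 and 42.7 CPM in KO against 23.3 and 26 CPM in WT cells, a log2 fold change of 0.88 ± 0.12 (edgeR adjusted p = 0.00942). KIF18A, a kinesin that limits chromosome oscillation, had 90.3 and 81.7 CPM in KO against 50.8 and 59.2 CPM in WT cells, a log2 fold change of 0.65 ± 0.11 (edgeR adjusted p = 0.0147). CDK1 had 277 and 274 CPM in KO against 168 and 194 CPM in WT cells, a log2 fold change of 0.61 ± 0.12 (edgeR adjusted p = 0.0189). In all 3 genes KO lay above WT in every library. HMMR rose by 0.54, and the remaining increases were MAD2L1, the checkpoint kinase TTK and the condensin ATPases SMC2 and SMC4.

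The decreases included PLK1 and 2 genes of the chromosomal passenger complex. AURKB had 54.4 and 60.5 CPM in KO against 82.3 and 79.2 CPM in WT cells, a log2 fold change of -0.49 ± 0.12 (edgeR adjusted p = 0.0290). PLK1 had 132 and 152 CPM in KO against 203 and 191 CPM in WT cells, a log2 fold change of -0.47 ± 0.11 (edgeR adjusted p = 0.0264). INCENP had 58.4 and 73.7 CPM in KO against 91.8 and 86.0 CPM in WT cells, a log2 fold change of -0.43 ± 0.13 (edgeR adjusted p = 0.0490). The groups did not overlap in any of these. NCAPD2 and CDC20 fell by 0.39 and 0.38 in log2 (edgeR adjusted p = 0.0293 for NCAPD2 and 0.0307 for CDC20), NCAPD2 with 290 and 318 CPM in KO against 401 and 397 CPM in WT cells. Among the 86 other mitotic genes 17 were called higher and 14 lower, with the kinesin KIF20B (log2 0.84), the shugoshin SGO2 (0.75), DEPDC1 (0.76), SKA2 of the outer kinetochore (0.58) and CKAP2L (0.51) higher and ESPL1, the gene of separase, lower (-0.66).

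**Figure D4:**
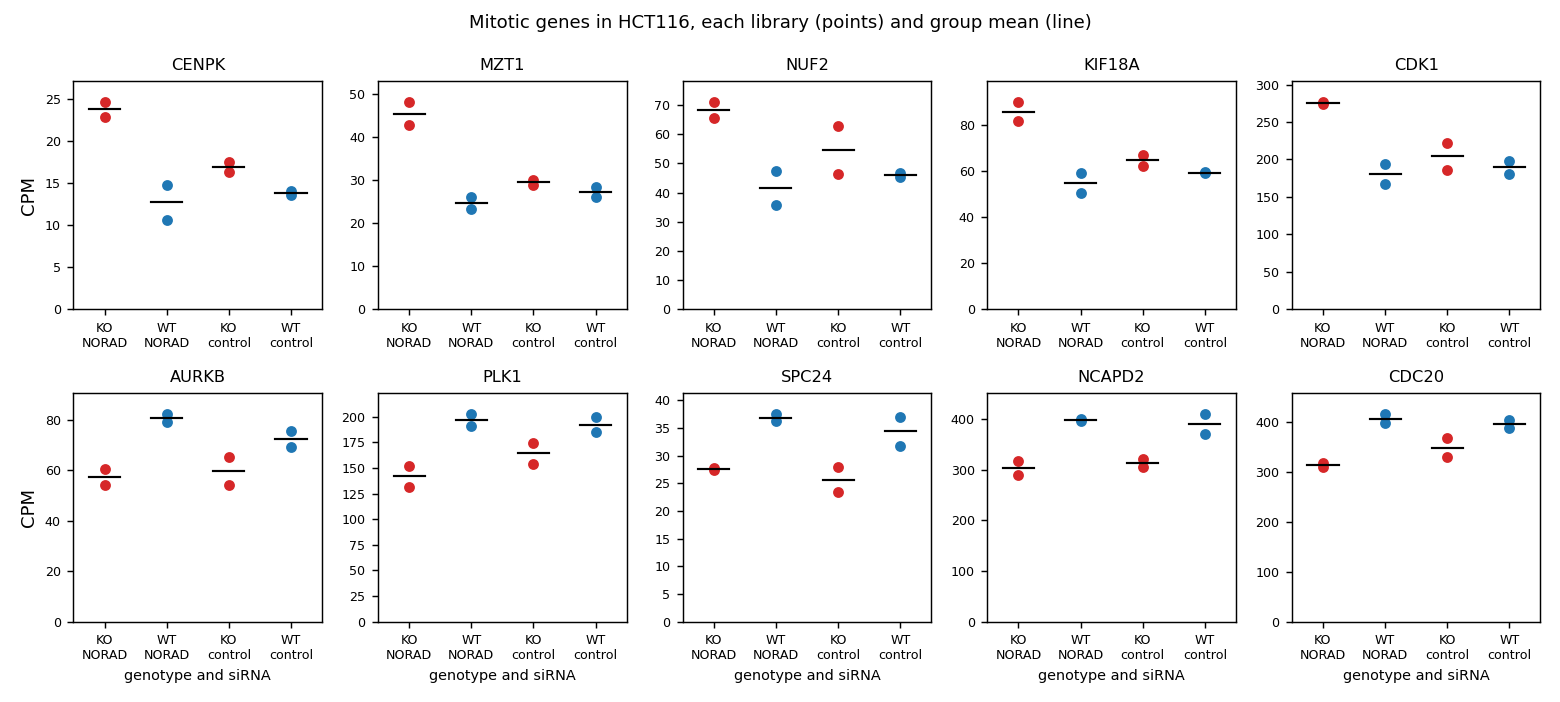
Level in CPM (y axis, from 0) of 10 mitotic genes in the HCT116 groups (x axis), with a point per library and a line at the group mean, KO in red and WT in blue. CENPK, MZT1, NUF2, KIF18A and CDK1 stand higher in KO than in WT cells under NORAD siRNA, and AURKB, PLK1, SPC24, NCAPD2 and CDC20 lower.

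The direction of a call under NORAD siRNA went with transcript GC content. The 15 genes that rose had GC contents of 32.0% to 40.1%, all below the members' median, and the 6 that fell had 52.5% to 59.6%. All 25 mitotic genes of low GC content lay above 0, with a median log2 of 0.47, whereas 18 of the 25 others lay below 0, with a median of -0.15. Of all genes 48.4% lay above and 51.6% below 0. Across all genes the Spearman rho of log2 value and GC content was -0.76, with a median of 0.36 below 45% GC and -0.19 at or above it.

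With an offset for GC content and length none of the 15 increases passed the threshold, 11 of them kept a value above 0, and their values lay between -0.05 and 0.24. CENPQ, SMC2, CDK1 and HMMR had values of -0.05, -0.03, -0.02 and -0.01. All 6 decreases kept their direction, with values of -0.32 to -0.11, and NCAPD2 passed (log2 -0.25, edgeR adjusted p = 0.0475), as did NCAPH, the kleisin of condensin I (log2 -0.28, edgeR adjusted p = 0.0270), which was not called without the offset. The median over the 50 genes was -0.09 with the offset. A Pumilio motif stood in 10 of the 15 genes that rose and in 1 of the 6 that fell, and a CHR element in 11 of 13 and 4 of 6 promoters found. The 25 mitotic genes of low GC content include all 15 that rose, and 16 of these 25 carried the Pumilio motif. With the offset the 23 genes with a Pumilio motif had a median log2 of -0.07 and the 27 without one -0.09.

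**Figure D5:**
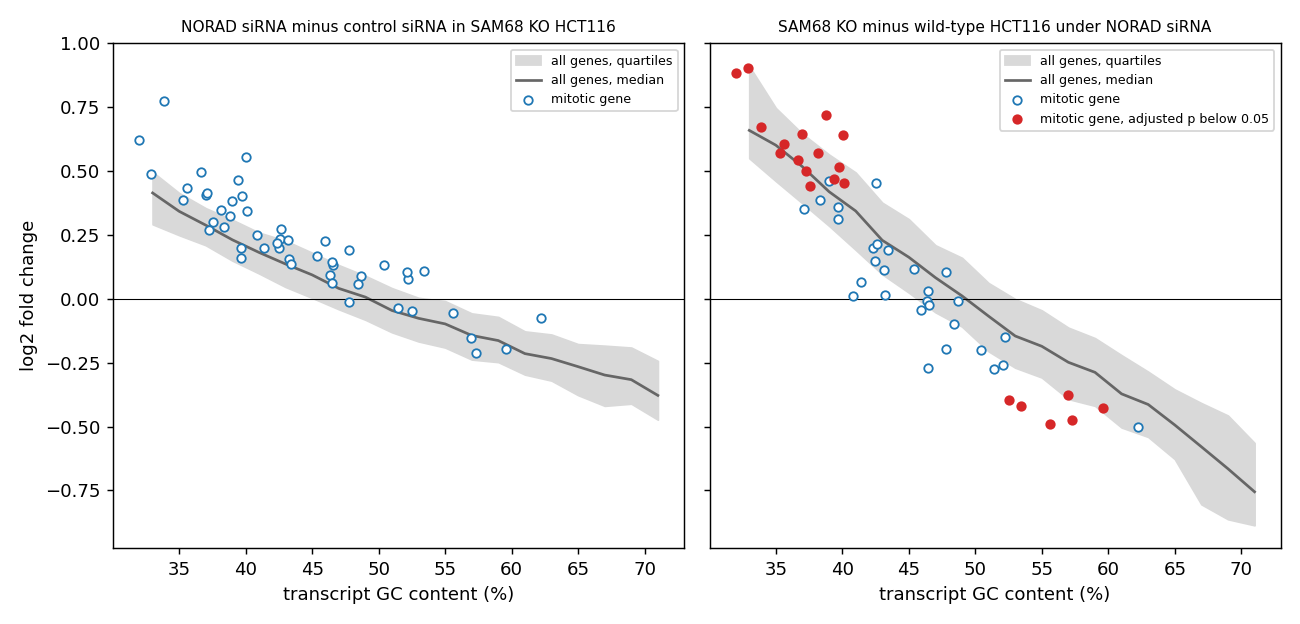
Log2 fold change (y axis) against transcript GC content in percent (x axis) for NORAD siRNA in KO cells (left) and KO against WT under NORAD siRNA (right), with the median and quartiles of all genes in bins of GC content (line and band) and each mitotic gene as a point, filled where the adjusted p was below 0.05. Values of the mitotic genes fall with GC content, as do those of all genes. In the left panel the mitotic genes have medians of 0.32 against 0.20 for all genes below 45% GC, and 0.08 against -0.11 at or above it. In the right panel these medians are 0.46 against 0.36 and -0.20 against -0.19. Within these ranges the mitotic genes were not matched to all genes for GC content. Medians of all genes go from 0.04 (left) and 0.08 (right) at 46% to 48% GC to -0.14 and -0.25 at 56% to 58%. The filled points lie at or below 40.1% GC when higher and at or above 52.5% when lower.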

How the data were processed

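The authors deposited 1 RSEM table per library; per the submitters' processing notes reads were handled with STAR and RSEM, with hg19 as the build; neither versions nor the strand setting were given in the sources used here. The deposited expected counts (estimated counts, not normalized) were rounded, and the deposited TPM served for levels between genes. The members and gene lists were chosen with earlier results of these data known. The members named in a comparison were all those called, up to the 10 largest per direction where over 20 were called. Where fewer than 6 were called, the 6 with the smallest p were named. Genes named beyond that were chosen after their values were seen. These were NDC80, MAD2L1, TTK, SMC2, SMC4 and NCAPH under NORAD siRNA, and NCAPH and NCAPD2 in U2OS against HCT116. The genes of the subunit levels, and ASPM and CENPE for their spread, were chosen likewise.

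Counts were filtered with filterByExpr, scaled by TMM and tested with edgeR 4.0.16 (quasi-likelihood test, limma 3.58.1, R 4.3.3), with adjusted p (Benjamini-Hochberg) over all genes. The 8 libraries of each line were fitted together (U2OS 15658 genes, HCT116 13764), and all 16 for the comparison of lines (16444). The groups share 1 estimate of spread, with a biological coefficient of variation of 20.0%, 11.3% and 16.4%. CPM are counts scaled to a common library total, ± is SD or SE as stated, and the smallest two-sided p of an exact permutation test here is 0.333. Replicates differed by more than sampling noise (chi-square per gene 7.83 to 60.1) and were kept apart. Alternatives were median-of-ratios size factors, DESeq2 1.42.0, no filter, an offset for GC content and length (splines), other sets of libraries, a replicate block and leaving out each library. Fits were tested on simulated data. Transcript features (GC content, length, 3′ UTR, from the transcript with the longest 3′ UTR) came from GENCODE 29 transcripts matched by RefSeq name, and promoters from RefSeq on GRCh38.p14, another build than that of the files; no coordinates were converted.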

Additional observations from a re-analysis of the deposited data

How the results depend on the processing

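Each group had 2 libraries, so changes could be missed, in U2OS also large ones, since KHDRBS1 was not called under SAM68 siRNA (log2 -1.94) or with the SAM68 plasmid (1.18). Of 186 alternative values for counts and medians of the mitotic genes 155 stayed within the limits set for a changed value. With no filter on low counts 2 members were called for NORAD siRNA in KO cells. With the offset for GC content and length, the median log2 was 0.058 there (0.062 with the replicate block added) and 0.032 for the difference of effects (0.034). KO against WT under control siRNA had a median of -0.129 and 2 calls with the offset, and -0.131 and 9 calls with the block added. Under NORAD siRNA the median was -0.086 with the offset in both fits, with 2 calls in the fit without the block, against 21 calls in the report; all 16 libraries in the fit gave 0 calls and the replicate block alone 33. The block gave a median of 0.540 for U2OS against HCT116. Apart from the offset, the cause of these moves was not tested.

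Leaving out single libraries gave 0 to 8 calls for KO against WT under NORAD siRNA and 22 to 25 for U2OS against HCT116. The medians then ranged from 0.148 to 0.250 for NORAD siRNA in KO, -0.033 to 0.049 in WT, 0.110 to 0.248 for their difference, -0.114 to 0.015 for KO against WT under control siRNA and 0.304 to 0.462 for U2OS against HCT116. Where a group was left with 1 library, it was assumed to vary like the other groups.

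Reversals among the named genes were as follows. Without the second SAM68 siRNA library NDC80 was at 0.0023 and KIF23 at 0.038, the single-library ranges reaching down to -0.81 and -0.74. For the SAM68 plasmid, AURKB was at -0.019 with the offset and -0.020 with offset and block. Leaving out single libraries took AURKB to -0.144 and 0.356, CDC20 to -0.100 and 0.344, MAD1L1 to -0.0033 and 0.264 and INCENP to -0.317 and 0.0047. For KO against WT under NORAD siRNA, the offset gave -0.045 for CENPQ, -0.026 for SMC2, -0.019 for CDK1 and -0.0135 for HMMR, and offset and block together -0.051, -0.025, -0.023 and -0.0129.

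Replicate numbers came from the labels, and same-numbered libraries correlated at 0.10 to 0.45 in HCT116 and -0.29 to 0.51 in U2OS. All 6 pairs of HCT116 groups thus correlated positively, but the labels give same-numbered libraries no shared culture or day and there are only 2 numbers, so the fits without the block are the ones reported. Crossing the numbers of the SAM68 plasmid group, chosen after seeing the data, gave 0 member calls.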
